A study of Mus musculus with 62 samples.

Results

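The 9 genes described here encode 3 dopamine receptors, an adenosine receptor and 5 proteins of the cAMP cascade of striatal projection neurons. They were taken as a fixed list by mouse Entrez identifier, and all 9 were present among the 17874 genes of the striatum table and the 17653 genes of the prefrontal cortex table. The samples were bulk RNA-seq libraries from tissue punches of female C57BL/6 mice given a mixture of polychlorinated biphenyls (PCBs), persistent industrial pollutants, by mouth under the name MARBLES mixture. In each region 4 libraries came from vehicle (dose 0), 5 from the 0.1 mg/kg dose, 6 from 1 mg/kg and 6 from 6 mg/kg, which makes 42 brain libraries. All mice shared sex and strain. Age and the length of dosing are not given in the sources used here. Libraries are called below by the number in their titles, and the same 21 numbers occur in both regions. The labels do not say that a number marks 1 mouse, so the p-values measure the spread between these libraries.

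By role, the receptors were Drd1 (Entrez 13488, chr13:54051183-54055658), Drd2 (13489, chr9:49340360-49408177), Drd3 (13490, chr16:43754015-43825982) and Adora2a (11540, chr10:75316877-75334792), all on mm10, which is GRCm38. Gnal (14680, chr18:67088298-67226792) encodes G alpha olf, the stimulatory G protein subunit of the striatum, and Adcy5 (224129, chr16:35154494-35305743) encodes its main adenylyl cyclase. Ppp1r1b (19049, chr11:98348406-98357796) encodes DARPP-32. The terminators were Rgs9 (19739, chr11:109225348-109298181), which speeds GTP hydrolysis by inhibitory G proteins, and Pde10a (23984, chr17:8525187-8986648), a phosphodiesterase that breaks down cAMP and cGMP. Values are gene-level counts, so isoforms were not separated.

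Medium spiny projection neurons make up most of the striatum. Neurons of the direct pathway carry the D1 receptor, which raises cAMP, and neurons of the indirect pathway carry the D2 receptor, which lowers it, together with the adenosine receptor encoded by Adora2a, which raises it. The receptors act on adenylyl cyclase through G proteins, cAMP activates protein kinase A, and DARPP-32 is a kinase target that turns this signal into inhibition of protein phosphatase 1. The prefrontal cortex also receives dopamine, and its D1 and D2 receptors sit on subsets of cortical neurons.

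Gnal was set aside by name before promoters were matched, so its windows were not examined. RefSeq promoter windows on GRCm38.p6, from 250 bases before a start site to 50 after it, were matched for Drd1, Drd2, Drd3, Adcy5, Rgs9 and Pde10a. Those of Drd1, Pde10a, Drd2 and Rgs9 are printed because the first 2 genes and the last 2 fell into different co-varying sets in the striatum, described further on. The windows are Drd1 at chr13:54055609-54055908 on the minus strand, Pde10a at chr17:8801495-8801794 on the plus strand, Drd2 at chr9:49340153-49340452 on the plus strand and Rgs9 at chr11:109298132-109298431 on the minus strand. Where a gene had several start sites, the window listed first is shown. Each reads 5′ to 3′, and capitals mark a GC box (GGGCGG or CCGCCC) or a TATA box (TATAAA or TTTATA).
Drd1: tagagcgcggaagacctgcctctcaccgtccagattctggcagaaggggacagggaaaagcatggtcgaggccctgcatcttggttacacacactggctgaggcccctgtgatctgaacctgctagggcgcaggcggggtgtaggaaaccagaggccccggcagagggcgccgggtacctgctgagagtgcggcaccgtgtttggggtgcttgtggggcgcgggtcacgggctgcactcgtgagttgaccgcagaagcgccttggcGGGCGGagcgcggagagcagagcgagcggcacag
Pde10a: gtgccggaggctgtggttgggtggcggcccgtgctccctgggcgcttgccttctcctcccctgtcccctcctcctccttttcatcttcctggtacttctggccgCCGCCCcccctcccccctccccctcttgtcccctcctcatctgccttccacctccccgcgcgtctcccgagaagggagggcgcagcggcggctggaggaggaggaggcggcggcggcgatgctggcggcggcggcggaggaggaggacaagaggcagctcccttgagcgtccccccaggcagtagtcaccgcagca
Drd2: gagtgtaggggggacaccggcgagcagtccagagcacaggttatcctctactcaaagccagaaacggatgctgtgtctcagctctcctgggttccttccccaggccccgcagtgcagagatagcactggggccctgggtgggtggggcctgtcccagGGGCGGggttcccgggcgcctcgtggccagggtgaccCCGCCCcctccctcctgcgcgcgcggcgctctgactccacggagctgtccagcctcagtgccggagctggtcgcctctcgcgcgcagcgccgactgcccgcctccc
Rgs9: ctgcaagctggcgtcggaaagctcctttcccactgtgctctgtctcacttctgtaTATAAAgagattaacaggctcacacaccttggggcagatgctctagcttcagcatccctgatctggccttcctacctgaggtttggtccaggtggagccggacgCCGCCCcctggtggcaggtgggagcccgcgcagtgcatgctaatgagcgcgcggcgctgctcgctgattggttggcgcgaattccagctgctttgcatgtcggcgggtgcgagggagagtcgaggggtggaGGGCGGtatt

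The Drd1 and Pde10a windows each held 1 GC box, the Drd2 window held 2, and the Rgs9 window held 2 and 1 TATA box. Among all 32851 windows of this length, 35.7% held a GC box and 13.6% a TATA box, counted on both strands. No window of the 6 matched genes held a cAMP response element (TGACGTCA, in 1.79% of all windows) or its core (TGACG, in 20.8%, which the full element contains). GC content was 65.7% for Drd1, 71.3% for Pde10a, 70.3% for Drd2 and 60.3% for Rgs9, against a median of 52.7% over all windows. These matches describe letters in the window and nothing about binding.

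The libraries held 8283032 to 12019651 counts in the striatum and 8722232 to 12135200 in the prefrontal cortex. Tissue labels were checked with lists of marker genes for other cells, as summed CPM (counts relative to the TMM-adjusted library total). Markers of cortical excitatory neurons (6 of 6 genes present) summed to 61.6 to 1648 CPM in the striatum and 1411 to 2442 in the prefrontal cortex. Striatum library 50 (1 mg/kg), at 1648, lay inside the cortical range, and libraries 8 (vehicle, 1126) and 46 (1 mg/kg, 894) were next. Markers of choroid plexus and ependyma, which line the adjoining ventricle, spanned 33.5 to 4310 CPM in the striatum, and those of thalamic, septal or hypothalamic neurons spanned 60.1 to 434. In bulk tissue, fewer cells of a type and less RNA per cell cannot be told apart.

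All 8 members other than Drd3 were abundant in both regions. On a scale that allows genes to be compared, CPM per kilobase of the longest annotated transcript, Ppp1r1b led in the vehicle striatum at 784 ± 353 (SD, n = 4), followed by Adcy5 at 192 ± 53.8. The next level was shared by Adora2a at 108 ± 43.1, Gnal at 105 ± 14.6 and Pde10a at 104 ± 30.2. Rgs9 at 75.1 ± 27.8 and Drd2 at 73.3 ± 30 came after these, then Drd1 at 42.6 ± 11.6 and Drd3 at 2.87 ± 1.37. From Adcy5 to Drd1 the ranges of neighbouring genes in this order overlapped, whereas Ppp1r1b lay above and Drd3 below all other members without overlap. In the prefrontal cortex Ppp1r1b (373 ± 142 CPM per kilobase), Adcy5 (99.8 ± 33.7) and Gnal (76.1 ± 16.2) were highest and Drd3 (0.267 ± 0.379) lowest.

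The regions were compared in vehicle libraries, and the 8 members other than Drd3 had higher estimates in the striatum, 6 of them past the threshold. In the sentences that follow the 4 values belong to vehicle libraries 3, 4, 7 and 8 in that order, in CPM. Drd1 read 185, 126, 191 and 108 in the striatum and 55.6, 92.8, 73.9 and 115 in the prefrontal cortex. Drd2 read 220, 136, 277.5 and 112 in the striatum and 45.6, 85.1, 83.1 and 123 in the prefrontal cortex. Library 8 was the lowest striatum library and the highest cortical one for both receptors, so the regions overlapped. Adora2a read 345, 190, 407 and 184 in the striatum and 57.8, 121, 123 and 188 in the prefrontal cortex. Rgs9 read 329, 188, 356 and 167 in the striatum and 66.5, 122, 108 and 175 in the prefrontal cortex. These also overlapped through library 8. Ppp1r1b read 1791, 960, 2468 and 1053 in the striatum and 413, 686, 783.5 and 1104 in the prefrontal cortex. Gnal spanned 508 to 677 in the striatum and 350 to 568 in the prefrontal cortex, and Pde10a spanned 504 to 1035 and 295.5 to 717, so both overlapped as well. Adcy5 read 1417, 1066, 1846 and 1042 in the striatum and 436, 653, 701 and 1009 in the prefrontal cortex, where the groups did not overlap. Drd3, the D2-like receptor of the islands of Calleja and accumbens, read 2.59, 3.38, 6.06 and 7.64 CPM in the striatum and 0.0889, 0, 0.333 and 1.41 in the prefrontal cortex, again without overlap, from 28 to 79 counts per striatum library and 0 to 12 per prefrontal one. It passed the filter on low counts through the striatum alone, so it is described by these levels and left out of the counts for tests between regions. Drd3 counts in the prefrontal cortex were 0 to 20 per library at all doses, too few for a test within that region.

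In the test of vehicle striatum against prefrontal cortex 6 of 8 members passed (21.4% of 15402 genes passed; edgeR's quasi-likelihood test, Benjamini-Hochberg adjusted p under 0.05). The median log2 fold change of the 8 was 1.01, against 0.02 over all genes. The log2 fold change was 1.20 ± 0.288 (SE) for Adora2a (edgeR adjusted p = 0.00204). It was 1.14 ± 0.273 for Rgs9, 1.15 ± 0.304 for Drd2 and 1.07 ± 0.279 for Ppp1r1b, with edgeR adjusted p = 0.00192, 0.00509 and 0.00449. Adcy5 was 0.94 ± 0.237 higher (edgeR adjusted p = 0.00323) and Drd1 0.86 ± 0.287 (edgeR adjusted p = 0.0276). Gnal (0.47 ± 0.205, edgeR adjusted p = 0.104) and Pde10a (0.59 ± 0.357, edgeR adjusted p = 0.26) did not pass. The count depended on single library numbers: without the libraries numbered 3 in both regions 0 of 8 passed, with Adora2a nearest at edgeR adjusted p = 0.0517, and without those numbered 7 only Adora2a and Rgs9 did (2 of 8). Without number 4 it was 6 of 8, and without number 8 it was 7 of 8, Gnal joining at edgeR adjusted p = 0.0284. In the same comparison 6 of 6 cortical excitatory markers were lower and 3 of 3 cholinergic and 5 of 5 oligodendrocyte markers higher in the striatum. Vehicle library 8 had the highest cortical marker sum of its striatal group, and the part of these cells in the members' values was not tested.

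**Figure D1:**
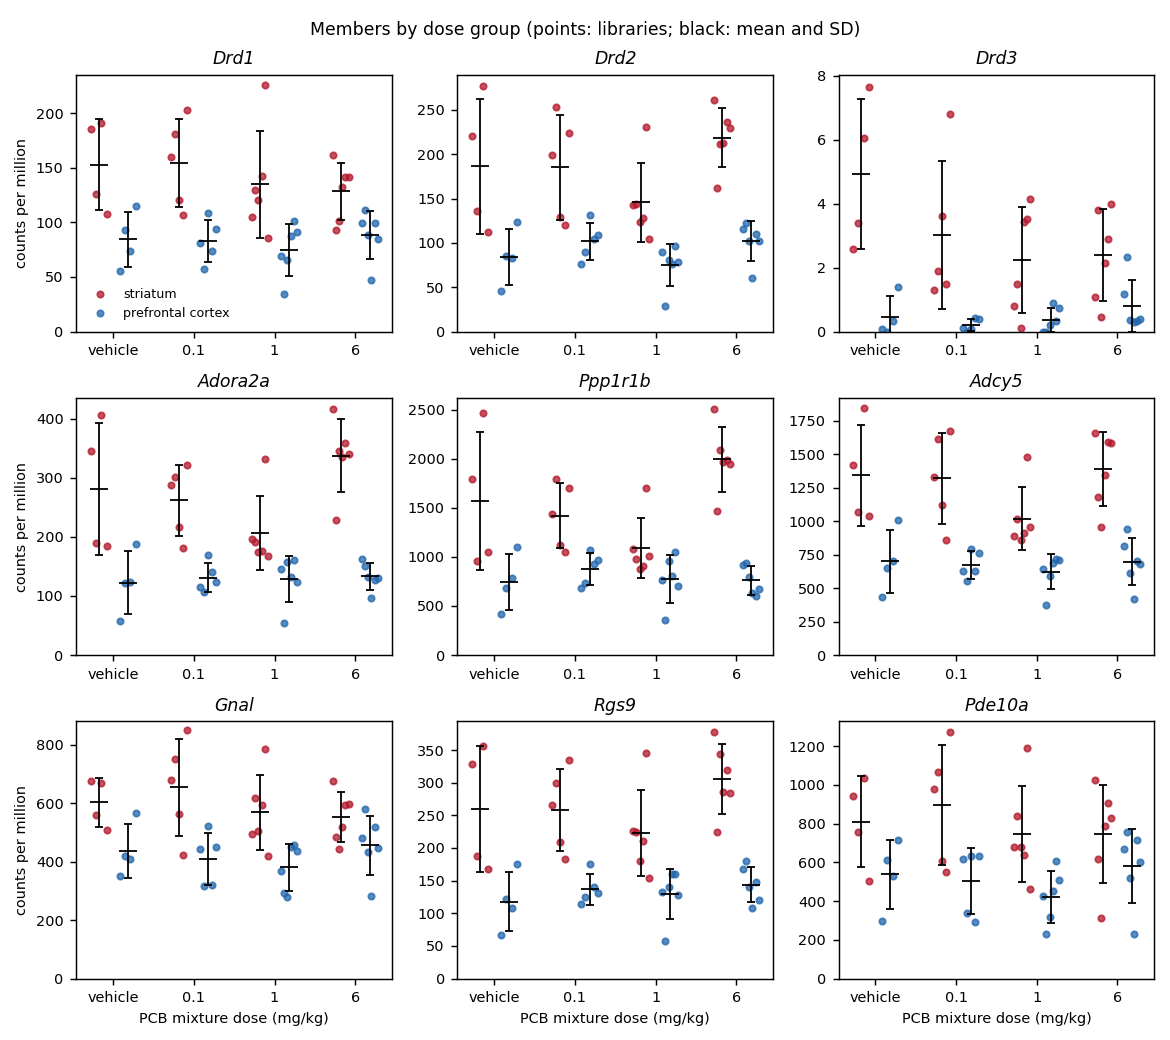
CPM of each member (linear axes from 0) by dose in the striatum (red) and prefrontal cortex (blue), 1 point per library, with black bars for the mean and SD of each group of 4 to 6 libraries. For each of the 9 members the 6 mg/kg libraries overlap the vehicle libraries in both regions.

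The central question of the design was whether the PCB dose altered expression, and no member passed in any dose comparison in either region (0 of 9 in the striatum and 0 of 8 in the prefrontal cortex, where Drd3 was not tested). Striatal Drd1 at 0.1 mg/kg read 160, 180, 121, 107 and 202.5 CPM in libraries 23, 24, 25, 28 and 29. At 1 mg/kg the lowest, median and highest values were 85.4, 125 and 226, and at 6 mg/kg they were 93.0, 137 and 161.5. Drd1 at 6 mg/kg thus overlapped vehicle, and 4 of the 6 libraries fell inside its range. Drd2 read 199, 254, 129, 120 and 224 CPM at 0.1 mg/kg, then 104, 136 and 230 at 1 mg/kg and 162, 221 and 261 at 6 mg/kg as lowest, median and highest. All 6 of its libraries at 6 mg/kg lay inside the vehicle range. Adora2a read 287, 301, 217, 180 and 322 CPM at 0.1 mg/kg, with 168, 184 and 332.5 as lowest, median and highest at 1 mg/kg and 228, 343 and 417 at 6 mg/kg. Ppp1r1b read 1434, 1789, 1120, 1049 and 1698 CPM at 0.1 mg/kg, with 882, 996 and 1697 as lowest, median and highest at 1 mg/kg and 1467, 1977 and 2511 at 6 mg/kg. Its highest vehicle library had read 2468, so 1 of the 6 libraries at 6 mg/kg exceeded the highest vehicle value. At 6 mg/kg the lowest, median and highest values were 959, 1466 and 1655 CPM for Adcy5 and 445, 557 and 675.5 for Gnal. They were 224, 302 and 378 for Rgs9, 312, 811 and 1027 for Pde10a, and 0.444, 2.52 and 3.99 for Drd3. All of these ranges overlapped those of vehicle given above.

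At 6 mg/kg against vehicle in the striatum, 0 genes passed (0% of 15118, with 15.7% at an unadjusted p under 0.05 in edgeR), 0 members passed, and 0 members had an unadjusted p under 0.05. DESeq2 called 26 genes and 0 members. The log2 fold change was -0.24 ± 0.234 (SE) for Drd1 (edgeR adjusted p = 0.621) and 0.24 ± 0.25 for Drd2 (edgeR adjusted p = 0.651). It was 0.27 ± 0.233 for Adora2a and 0.35 ± 0.236 for Ppp1r1b, with edgeR adjusted p = 0.576 and 0.46. Gnal (-0.12 ± 0.172), Adcy5 (0.05 ± 0.2), Rgs9 (0.24 ± 0.228) and Pde10a (-0.11 ± 0.301) had edgeR adjusted p of 0.612 to 0.913. Drd3 had the widest error, -1.03 ± 0.597 (edgeR adjusted p = 0.398). For 8 of the 9 members the 95% interval lay within ±1 on the log2 scale, and for Drd3 it reached beyond. The median of members was 0.05, against 0.01 for all genes.

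At 1 mg/kg all 9 members had log2 fold changes below 0 against vehicle in the striatum, with a median of -0.36 against 0.01 for all genes. Without vehicle library 7 the median was -0.11 and 8 of 9 were below 0. None passed (edgeR, 0% of 15118 genes, 7.36% unadjusted; DESeq2 called 6 genes and 0 members), and 1 member, Ppp1r1b, had an unadjusted p under 0.05 in edgeR. Its log2 fold change was -0.53 (edgeR adjusted p = 0.675), and those of Adora2a, Adcy5 and Drd2 were -0.45, -0.40 and -0.36. Leaving out vehicle library 7 moved Ppp1r1b to -0.22, and leaving out vehicle library 8 moved it to -0.68. Without 1 library the number of members with an unadjusted p under 0.05 ran from 0 to 4, and it was 4 without vehicle library 8 or without library 48 of the 1 mg/kg group and 3 without vehicle library 4, with 0 past the adjusted threshold each time. Without library 50, whose cortical markers were in the cortical range, Ppp1r1b was -0.51. Median summed cortical markers were 464 CPM at 1 mg/kg and 355 in vehicle, and cholinergic markers 66.3 and 94.9. For thalamic, septal or hypothalamic markers they were 177 and 86.3, for the islands of Calleja 465 and 625, and for choroid plexus 102 and 105 (up to 4310 and 699). The median log2 fold changes over these 5 marker lists were 0.66, -0.45, 0.78, -0.56 and 1.32, and that of GABA interneuron markers was -0.15 (median sums of 413 and 446 CPM). An unadjusted p under 0.05 was found for 3 of 6 GABA interneuron markers, 2 of 3 cholinergic markers, 1 of 4 islands of Calleja markers (a list that holds Drd3) and 0 genes of the other 8 lists. The 5 medians not given above ran from -0.49 for blood markers to 0.20 for oligodendrocyte markers. No marker passed the adjusted threshold (edgeR), and their part in the members' values was not tested. At 0.1 mg/kg the 9 members ranged from -0.68 to 0.15 (edgeR adjusted p = 1 for all; 0% of genes, 2.53% unadjusted, 0 members unadjusted; DESeq2 called 1 gene and 0 members).

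Setting 6 mg/kg against 0.1 mg/kg in the striatum left 440 genes past the threshold (2.91%) and 0 of 9 members (edgeR; 22.3% of genes and 1 member had an unadjusted p under 0.05, and DESeq2 called 1098 genes and 0 members). The member was Ppp1r1b, at 0.50 (unadjusted p = 0.0352, edgeR adjusted p = 0.189). Leaving out library 23, 24, 25 or 29 of the 0.1 mg/kg group lost most of the 440 calls, as given in the last section. The rank trend over the 4 doses gave 0 of 9 members and 0% of genes in the striatum (edgeR, 13.1% unadjusted), with 0 members at an unadjusted p under 0.05; DESeq2 called 14 genes and 0 members.

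Prefrontal Drd1 read 81.3, 57.5, 109, 73.7 and 93.9 CPM at 0.1 mg/kg (libraries 23, 24, 25, 28 and 29), with lowest, median and highest values of 34.2, 78.4 and 101 at 1 mg/kg and 47.4, 93.9 and 112 at 6 mg/kg. Drd2 there read 75.8, 89.9, 131, 104 and 109 CPM at 0.1 mg/kg, with 28.6, 79.6 and 96.6 at 1 mg/kg and 60, 107 and 123 at 6 mg/kg. Both overlapped vehicle at every dose. The 8 tested members lay between -0.01 and 0.29 at 6 mg/kg against vehicle in the prefrontal cortex (edgeR adjusted p of 0.755 to 0.992; 0% of 14838 genes passed, 9.27% unadjusted, and 0 members unadjusted). DESeq2 called 27 genes and 0 members there. The median was 0.09, against 0.00 for all genes, and 8 of 8 intervals lay within ±1. At 1 mg/kg the median was -0.17 and at 0.1 mg/kg it was 0.04 (0% of genes passed in both, 8.29% and 6.43% unadjusted, 0 members unadjusted; DESeq2 called 0 and 1 genes and 0 members). The 6 against 0.1 mg/kg comparison called 16 genes (0.108%, 10.1% unadjusted) and the rank trend 3 (0.0202%, 9.79% unadjusted), with 0 members in each, also unadjusted. DESeq2 called 116 and 65 genes in these, and 0 members. A test of whether the dose effect differed between regions found 0 of 8 members, Drd3 left out, and 0 genes at 6, 1 and 0.1 mg/kg (edgeR; 6.85%, 6.56% and 2.79% of genes unadjusted, 0 members unadjusted in each; DESeq2 also called 0).

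**Figure D2:**
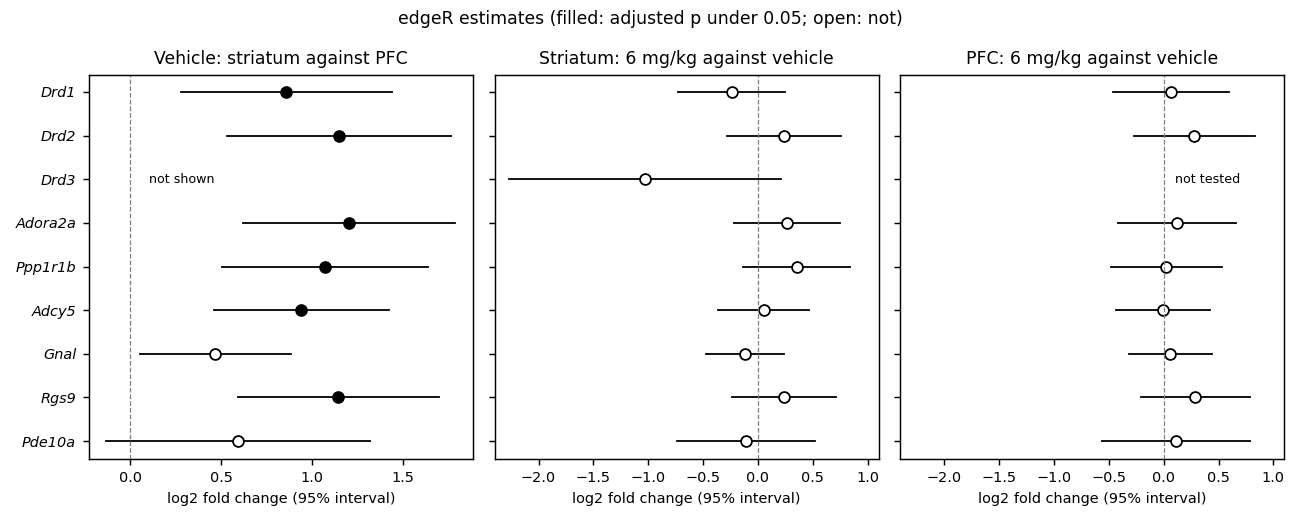
Log2 fold change of each member with its 95% interval (edgeR) for vehicle striatum against prefrontal cortex (PFC) and for 6 mg/kg against vehicle in each region; filled points passed an adjusted p of 0.05 and the dashed line marks 0. Drd3 is not shown in the first panel, where 6 of 8 members passed, and in the dose panels 0 did; their horizontal scale differs from that of the first panel.

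Within a dose group the highest library was 1.33 times the lowest (Gnal, vehicle) to 3.29 times (Pde10a, 6 mg/kg) in the striatum, and 1.45 times (Adcy5, 0.1 mg/kg) to 3.37 times (Drd2, 1 mg/kg) in the prefrontal cortex, leaving aside the low-count Drd3. Each of these maxima rested on 1 library: Pde10a was 1.66 times without library 54 and Drd2 was 1.26 times without library 42. Over all doses the ratio of the highest to the lowest of the 21 striatum libraries ran from 2.03 for Gnal to 4.08 for Pde10a. Prefrontal libraries gave ratios from 2.09 for Gnal to 4.59 for Drd2, which was 2.88 without library 42. This variation was shared. In the striatum, Pearson's r of log2(CPM + 0.1) over 21 libraries was 0.868 to 0.941 among Drd1, Gnal and Pde10a, and 0.906 to 0.976 among Drd2, Adora2a, Ppp1r1b and Rgs9. Between the sets it was 0.402 to 0.724. Adcy5, the cyclase on which both receptor arms act, correlated with the other 7 at 0.759 to 0.88. Drd3 correlated with the other 8 at 0.026 to 0.428 and passed with none. The sets were named after their values were seen.

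Within dose groups, after subtracting each group's mean, the same correlations were 0.865 to 0.939, 0.918 to 0.968 and 0.611 to 0.903. The sets were then not clearly apart, as Drd1 correlated with Drd2 at 0.903 and with Pde10a at 0.865. Of 64 pairs tested over both regions, 26 of 36 in the striatum and 28 of 28 in the prefrontal cortex had an adjusted permutation p under 0.05 (100000 permutations). In the striatum the smallest r that passed was 0.513, which 7.44% of all gene pairs reached, and the smallest within the sets was 0.868, which 0.12% reached. The corresponding prefrontal values were 0.46, reached by 9.66% of gene pairs, and 0.854, reached by 0.203%. These shares are given as a description. For Drd1 and Gnal in the striatum, r was 0.941 and Spearman's rho 0.939, and r was 0.924 without the 2 most extreme libraries. For Adora2a and Ppp1r1b, r was 0.976, rho 0.958, and r without the 2 libraries 0.975. Prefrontal r was 0.886 to 0.936 within the first set, 0.854 to 0.948 within the second and 0.46 to 0.868 between them. These ranges also overlapped. Pairs share libraries, so these values are not independent of each other.

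**Figure D3:**
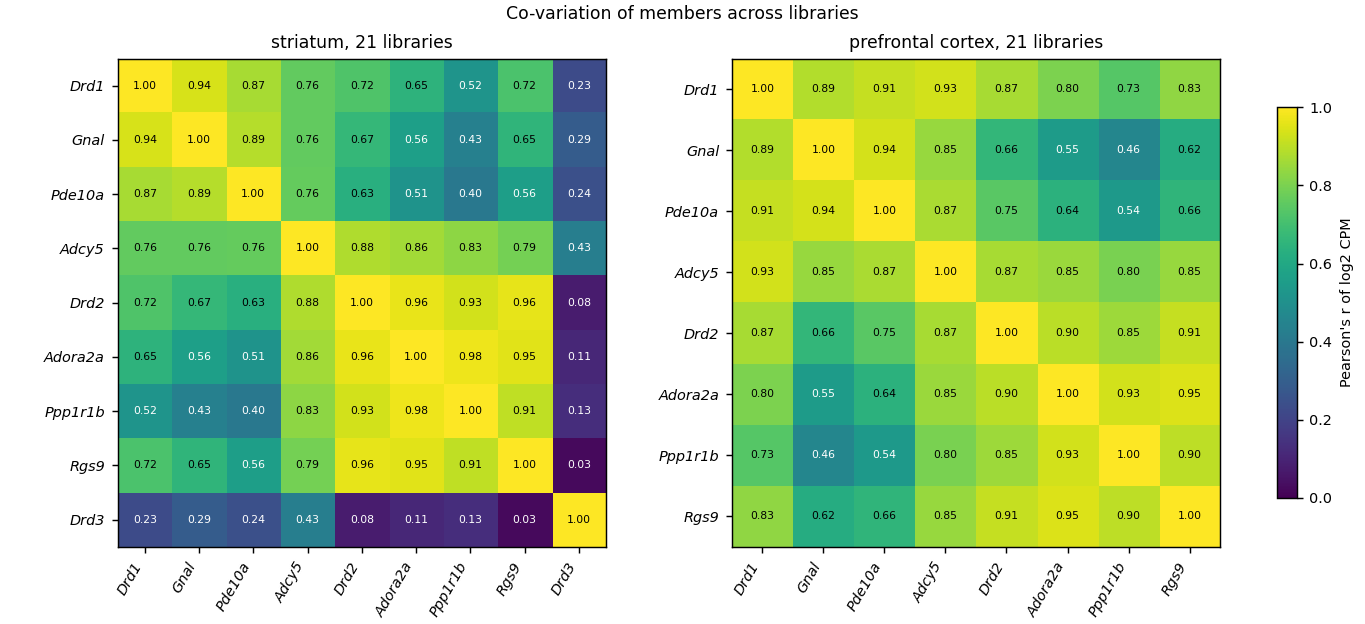
Pearson's r of log2(CPM + 0.1) for each pair of members over the 21 libraries of each region (colour scale from 0 to 1; Drd3 is not shown for the prefrontal cortex, where its counts were too low). In the striatum, Drd1, Gnal and Pde10a form a block of 0.868 to 0.941 and Drd2, Adora2a, Ppp1r1b and Rgs9 one of 0.906 to 0.976. With group means subtracted (not shown), values between the blocks reached 0.903.

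A second view of these sets is the ratio of Drd2 to Drd1 counts inside a library, which library size does not affect. In the striatum it was 1.19, 1.08, 1.45 and 1.04 in vehicle libraries 3, 4, 7 and 8, and 1.24, 1.41, 1.07, 1.12 and 1.1 at 0.1 mg/kg. Lowest, median and highest values were 0.904, 1.07 and 1.37 at 1 mg/kg. At 6 mg/kg they were 1.61, 1.65 and 2.08, above every other striatum library. Prefrontal vehicle ratios were 0.821, 0.917, 1.12 and 1.07, and the 6 mg/kg ratios of 1.1 to 1.27 overlapped them. The ratio was picked after the values were seen, so its difference between dose groups was not tested. The permutation p-values given below for its relations carry the same limit.

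Markers of other cells are set beside the striatal values at 6 mg/kg, where 0 genes of the 11 marker lists passed against vehicle (edgeR). The 3 blood markers tested, of 5 listed, had a median log2 fold change of -1.36 and all 3 had an unadjusted p under 0.05, with sums of 42.3 to 135 CPM at 6 mg/kg and 65.9 to 529 in vehicle. Oligodendrocyte markers had a median of 0.33 (2 of 5 unadjusted) and sums of 5676 to 7779 and 3772 to 5708 CPM. Cortical excitatory markers had a median of -1.12 (0 of 6 unadjusted) and sums of 61.6 to 447 and 72.6 to 1126 CPM. Microglial markers were at 0.16 (2 of 5), thalamic, septal or hypothalamic ones at 0.85 (0 of 6) and choroid plexus ones at 0.72 (0 of 5). Astrocyte markers were at -0.01 (1 of 5) and endothelial ones at -0.10 (1 of 4). Over all genes 15.7% had an unadjusted p under 0.05 in this comparison. The part of these markers in the ratio and in the members' values was not tested.

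Of the 28 striatal pairs of members with at least 5 CPM, 4 had ratios that did not overlap between 6 mg/kg and vehicle, and all 4 held Drd1, paired with Drd2, Adora2a, Ppp1r1b and Rgs9. Over all gene pairs, 3.81% did not overlap in that comparison. Of these pairs 3 of 28 also did not overlap with any library outside 6 mg/kg, against 0.547% of all pairs. Among prefrontal pairs 1 of 28, Drd2 with Adcy5, did not overlap between 6 mg/kg and vehicle, against 3.15% of all pairs, and 0 of 28 stood clear of all other libraries, against 0.0343%.

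The GC content of transcripts was examined beside the ratio. For each library the rank correlation across genes between its log2 deviation from the gene mean and transcript GC content was computed, with GC known for 98.4% of tested genes. In the striatum this GC correlation was 0.28 to 0.42 at 6 mg/kg, -0.31 to -0.03 at 0.1 mg/kg, -0.56 to 0.28 at 1 mg/kg and -0.40 to 0.38 in vehicle. Its medians in that order were 0.39, -0.08, -0.42 and 0.02, and its part in the members' values at 1 mg/kg was not tested. Transcript GC was 46% for Drd1, 55% for Drd2, 59.2% for Adora2a and 61.0% for Ppp1r1b, but 48.2% for Rgs9. Across the 15 striatum libraries outside 6 mg/kg, the log2 Drd2 to Drd1 ratio and the GC correlation had r = 0.50 and rho = 0.511 (adjusted permutation p = 0.0783 over 4 relations), and r = 0.272 without the 2 extreme libraries. The same relation for transcript length (the rank correlation across genes with length) had r = -0.329 and rho = -0.318 in these striatum libraries (adjusted permutation p = 0.232 and 0.248), and -0.30 without the 2 extreme libraries. The prefrontal values for GC were r = 0.672 and rho = 0.689 (adjusted permutation p = 0.0156), and 0.763 within groups and 0.691 without the 2 extreme libraries. Those for length were r = -0.668 and rho = -0.70 (adjusted permutation p = 0.0156 and 0.0125), with -0.833 within groups and -0.581 without the 2 extreme libraries. At 6 mg/kg in the striatum the length correlation was -0.61 to 0.04, against -0.07 to 0.32 in vehicle. Outside 6 mg/kg the 3 striatum libraries with a GC correlation above 0 were vehicle libraries 7 (0.38) and 8 (0.24) and library 50 of 1 mg/kg (0.28), with ratios of 1.45, 1.04 and 1.22. Among the 6 striatum libraries at 6 mg/kg the ratio had r = 0.536 and rho = 0.657 with the GC correlation (adjusted permutation p = 0.247 and 0.661; r = 0.517 without the 2 extreme libraries). With the length correlation it had r = -0.765 and rho = -0.029 (adjusted permutation p = 0.187 and 1), and r turned to 0.917 without the 2 extreme libraries, so that r rested on them. In the 6 prefrontal libraries at 6 mg/kg, r was 0.712 with GC (rho = 0.429) and -0.684 with length (rho = -0.371), with an adjusted permutation p of 0.187 for each r and 0.661 for each rho, and -0.26 and -0.005 without the 2 extreme libraries. The part of GC content and length in the higher striatal ratio at 6 mg/kg was not tested.

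**Figure D4:**
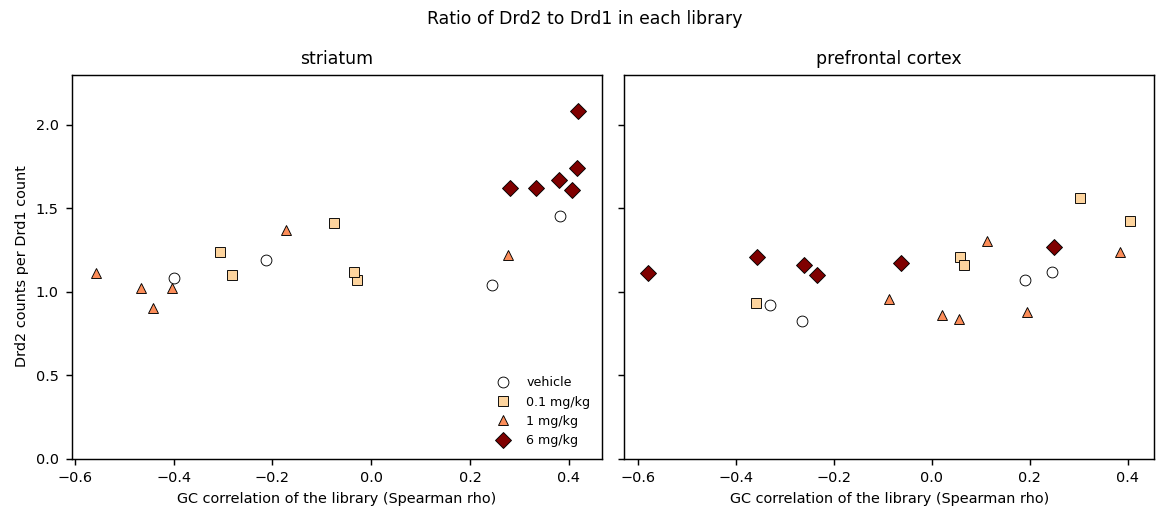
Drd2 counts per Drd1 count in each library against the library's GC correlation (rank correlation across genes between its log2 deviation and transcript GC content), with dose by symbol. The 6 striatum libraries at 6 mg/kg, from 1.61 to 2.08, lie above all other striatum libraries and have GC correlations of 0.28 to 0.42.

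Because the members rose and fell together between libraries, the tests were repeated with a covariate, the mean deviation of 20 other genes shared by projection neurons, chosen after the data were seen. Members followed this score at r = 0.777 to 0.915 in the striatum, except Drd3 at 0.228, and at 0.753 to 0.974 in the prefrontal cortex. With the score as covariate, 3 of 9 members passed at 6 against 0.1 mg/kg in the striatum, where 839 genes did (5.55%). Drd1 was lower, at -0.26 ± 0.0761 (SE, edgeR adjusted p = 0.0434). Adora2a was higher, at 0.37 ± 0.0997 (edgeR adjusted p = 0.0336), as was Ppp1r1b, at 0.50 ± 0.117 (edgeR adjusted p = 0.0231). Leaving out library 23, 25 or 29 of the 0.1 mg/kg group ended all 3 calls, and without library 24 or 55 only Ppp1r1b passed. In this comparison without covariates, 2 of 5 oligodendrocyte markers (median log2 fold change 0.37) and 2 of 5 astrocyte markers (-0.04) had an unadjusted p under 0.05 (edgeR). Blood markers were at -0.95 (0 of 3) and choroid plexus ones at 0.82 (0 of 5). Over all genes the share was 22.3%, and the part of these markers in the calls was not tested. With the GC correlation as covariate, alone or with the score, 0 of 9 members and 3 genes (0.0198%) passed. That correlation was 0.28 to 0.42 at 6 mg/kg and -0.31 to -0.03 at 0.1 mg/kg. As the groups did not overlap, this fit cannot tell it apart from dose.

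Against vehicle with the score, 0 of 9 members and 0 genes passed in edgeR (0% of genes, 18.7% unadjusted), while 6 members had an unadjusted p under 0.05. Drd1 was -0.29 (edgeR adjusted p = 0.128), Ppp1r1b 0.38 (edgeR adjusted p = 0.142) and Drd2 0.25 (edgeR adjusted p = 0.181). Without vehicle library 7, Drd1 (-0.33, edgeR adjusted p = 0.0497) and Ppp1r1b (0.52, edgeR adjusted p = 0.0428) passed, among 339 genes (2.22%). With both covariates in the prefrontal cortex, Rgs9 was 0.32 higher at 6 mg/kg than in vehicle (edgeR adjusted p = 0.0494), where 504 genes passed (3.40%). It was also the 1 member that passed in the rank trend of that fit (slope 0.11 per dose step on the log2 scale, edgeR adjusted p = 0.042), where 319 genes did (2.15%). The call at 6 mg/kg against vehicle held in 3 of 10 fits that each left out 1 library of those groups (without 4, 52 or 58), and was lost without library 3, 7, 8, 53, 54, 55 or 56 (edgeR adjusted p of 0.0426 to 0.259 over the 10, log2 fold change of 0.25 to 0.41). The trend held in 11 of 21 such fits (edgeR adjusted p of 0.0159 to 0.169). Among prefrontal markers at 6 mg/kg against vehicle, without covariates, 3 of 3 tested blood markers had an unadjusted p under 0.05 (median log2 fold change -2.13, sums of 12.6 to 82.1 against 43.2 to 598 CPM), as did 2 of 6 cortical excitatory markers (median -0.02) and 1 of 5 oligodendrocyte markers (0.17), with 0 past the adjusted threshold in edgeR. In the rank trend the counts were also 3 of 3, 2 of 6 and 1 of 5. Their part in the Rgs9 values was not tested.

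The mean of 8 members (each scaled to its own mean and SD over libraries) was set against 11 lists of marker genes in each region, 22 relations in all. In the prefrontal cortex it followed cholinergic interneuron markers, which summed to 6.65 to 63.5 CPM there, at r = 0.904 and rho = 0.906 (adjusted permutation p = 0.00022, from the smallest p the permutations can give, 1e-05). That r was 0.93 without the 2 extreme libraries and 0.912 within groups. Against cortical excitatory neuron markers it was -0.64 (rho = -0.666, adjusted permutation p = 0.0141, -0.625 without the 2 libraries, -0.688 within groups). Oligodendrocyte markers there had r = 0.635 (adjusted permutation p = 0.0141, 0.606 without the 2 libraries, 0.673 within groups) and rho = 0.544 (adjusted permutation p = 0.0557). In the striatum the relation with the highest r was that to microglial markers, at r = 0.634 and rho = 0.648 (adjusted permutation p = 0.0141 and 0.0139), with 0.611 without the 2 libraries and 0.592 within groups. Cholinergic markers had r = 0.603 (adjusted permutation p = 0.0202, 0.466 without the 2 libraries, 0.515 within groups) and rho = 0.503, which did not pass (adjusted permutation p = 0.0763). Markers of the islands of Calleja had r = 0.578 (adjusted permutation p = 0.0202, 0.515 without the 2 libraries, 0.527 within groups) and rho = 0.54 (adjusted permutation p = 0.0557). Cortical markers had r = -0.235 (adjusted permutation p = 0.511), and the other relations of each region did not pass. Prefrontal libraries 3 (vehicle), 42 (1 mg/kg) and 55 (6 mg/kg) had both the lowest member means and the lowest cholinergic sums, 8.89, 6.82 and 6.65 CPM. The part of these cells in the members' values was not tested.

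**Figure D5:**
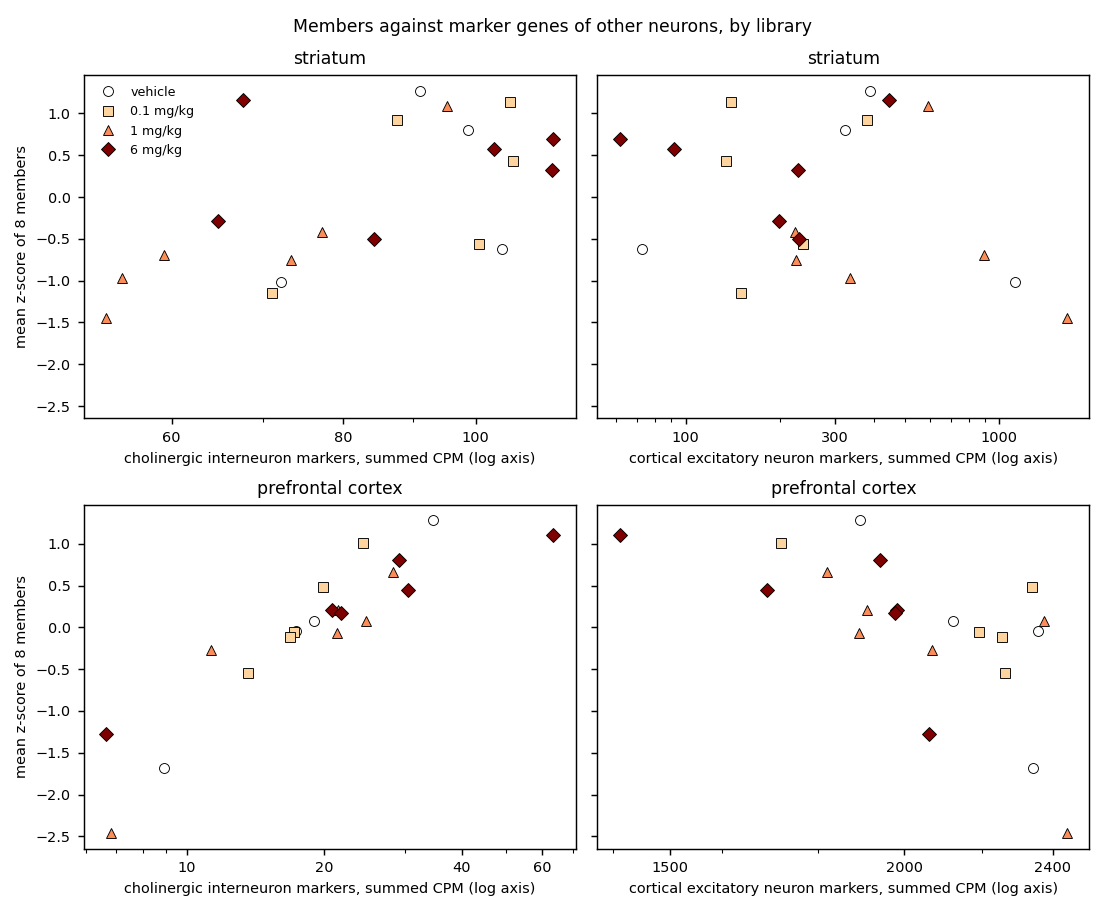
Mean scaled level of 8 members in each library against the summed CPM of cholinergic interneuron and cortical excitatory neuron markers (log axes), for the striatum (top) and prefrontal cortex (bottom), coloured by dose. In the prefrontal cortex the points rise with cholinergic markers (r = 0.904) and fall with cortical markers (r = -0.64).

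The genes whose pattern over the 21 striatum libraries was most like the mean of the 9 members, among 12173 genes, included Gng7 (r = 0.97), Tbc1d8 (0.963), Pde1b (0.952) and Smpd3 (0.947). Gng7 encodes the G protein gamma subunit that partners G alpha olf. Kcna4 (0.94), Cacna2d3 (0.935) and Rarb (0.932) were closest to Drd1 among genes that are not members (Gnal, a member, had 0.941), while Rasd2 (0.986), Pde1b (0.981) and Actn2 (0.967) were closest to Drd2. Among 11897 prefrontal genes and with the mean of 8 members, Gng7 (0.979), Pde1b (0.968), Actn2 (0.945) and Cd4 (0.944) were among the closest.

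Other genes of the pathway were taken from fixed lists, and their counts in the regional comparison are to be read against the 21.4% of all genes that passed. Genes of direct pathway neurons were higher in the vehicle striatum in 5 of 5 cases tested, led by Isl1 (log2 fold change 2.69, edgeR), with Pdyn at 1.30 and Tac1, which encodes substance P, at 1.05. Among indirect pathway genes 3 of 5 were higher (Gpr6 1.38, Penk 1.23, Sp9 1.03) and Plxdc1 was lower (-0.50). Of 20 shared projection neuron genes 9 were higher and 0 lower, among them Gng7 (1.11), Rarb (1.01), Pde1b (0.81) and Ptpn5 (0.72). Of 32 genes of the cAMP and DARPP-32 cascade 2 were higher and 7 lower, with Adcy1, a calmodulin-dependent cyclase, at -1.38 and Gnb1 at -0.34. Among 8 regulators of G protein signalling 3 were higher and 1, Rgs7, lower at -0.66. Of the other dopamine receptors Drd5 was 1.60 higher, while Drd4, which passed the filter through the prefrontal cortex alone and is given by its level, had a mean of 0.0949 CPM in the vehicle striatum and 0.495 in the vehicle prefrontal cortex. Of 7 genes for dopamine synthesis, transport and breakdown 3 were higher, Ddc (1.83), Th (1.61) and Slc18a2 (1.07).

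With dose, these lists held 1 call. Creb1, a transcription factor activated by cAMP signalling, was lower at 6 than at 0.1 mg/kg in the striatum (-0.40 ± 0.0923 SE, edgeR adjusted p = 0.0345, 1 of 32 genes of its list against 2.91% of all genes). Without library 29 of the 0.1 mg/kg group 0 genes passed, so that call was lost too. At 6 mg/kg against vehicle the lists had 0 calls in either region. In the striatum the smallest p in each list belonged to Creb1 (-0.30), Sp9 (0.22), Th (0.55), Ptpn5 (0.35), Isl1 (-0.27), Gnb5 (0.18) and Drd5 (0.09), with edgeR adjusted p of 0.208 to 0.839. In prefrontal libraries it belonged to Rgs4 (0.35), Slc18a2 (0.60), Ppp3r1 (0.23), Ebf1 (0.46), Kcnj4 (-0.24), Drd5 (0.58) and Ptprm (-0.13), with edgeR adjusted p of 0.242 to 0.733.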

How the data were processed

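Per the labels, RNA was taken from tissue punches with TRIzol and RNeasy columns, and enrichment was by poly(A) capture or rRNA removal (the labels name both). The submitters' processing notes name FastQC, HISAT2 and mm10; the counter, annotation and strand setting are not given in the sources used here. The deposited tables hold whole-number gene counts, 1 column per library, and every listed gene sums to at least 10 over its table. Groups follow the treatment labels.

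Each region was fitted on all 4 dose groups with edgeR 4.0.16 (R 4.3.3): TMM normalization, the filterByExpr filter, the robust quasi-likelihood test, Benjamini-Hochberg adjustment over all genes and a threshold of 0.05. The filter left 15118 genes in the striatum, 14838 in the prefrontal cortex and 15402 in a joint fit of both regions. The joint fit gave the region and interaction tests. CPM values divide the deposited counts by TMM-adjusted library totals of the joint fit. GC content and lengths come from the longest GENCODE vM21 transcript. With 8283032 to 12135200 counts per library, a log2 change of 1 simulated in 199, 198 and 200 genes was recovered for 80.9% of genes in the striatum at 6 mg/kg against vehicle, 88.4% in the prefrontal cortex and 73.5% between regions, over 15007, 14723 and 15255 genes. Of the calls in these simulations 6.94%, 3.85% and 4.55% were false, in the same order. Genes were simulated independently of each other, and smaller changes were not simulated. No libraries were duplicates, as chi-square tests of counts within groups gave at least 2.94 per degree of freedom.

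The members and lists were chosen with earlier results of these data known. All 9 members are named, as are up to 4 genes of each pathway list that passed (smallest p first) or, where none passed, the 1 with the smallest p at 6 mg/kg, and the genes with the highest r to the members' mean (5 per region, of which 1 is not reported here), Drd1 and Drd2 (3 each, striatum). Alternatives were DESeq2 1.42.0, median-ratio size factors, other filters, the compared groups alone, dose in mg/kg, a replicate block and each library left out; covariate fits were added after seeing the data. Liver libraries were not used here.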

Additional observations from a re-analysis of the deposited data

Results flagged for a closer look

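In 88 groups of member levels and ratios with 4 to 10 libraries, 14 had a library far from the rest by Dixon's criterion, where chance gives about 4.4 (5%).

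Striatum library 48 (1 mg/kg) was far above the other 5 for Drd2 (230.3 CPM, next 144), Adora2a (332.5, next 196), Ppp1r1b (1697, next 1079), Adcy5 (1480, next 1019) and Rgs9 (345.1, next 226). Its shared projection neuron score, 0.48, was the highest of the striatum.

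Prefrontal library 42 (1 mg/kg) was far below its group for Drd2 (28.64 CPM, next 76.5), Adora2a (54.48, next 123), Adcy5 (373.9, next 593) and Rgs9 (57.27, next 127). Its shared score, -0.72, was the lowest of the region.

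Prefrontal library 55 (6 mg/kg) was far below its group for Drd2 (60 CPM, next 102) and above it for the ratio of Ppp1r1b to Pde10a (2.72, next 1.54). Library 45 (1 mg/kg) was above its group for that ratio in the prefrontal cortex (3.03, next 1.80). Striatum library 54 (6 mg/kg) had the highest ratio of Drd2 to Drd1 (2.08, next 1.74) and of Ppp1r1b to Pde10a (6.68, next 2.50), and the correlation across genes between its deviations and transcript length was -0.61.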

How the results depend on the processing

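With DESeq2, median-ratio size factors, the other filters, the compared groups alone and dose in mg/kg, the dose and interaction comparisons kept 0 members past the threshold. Leaving out single libraries from the planned fits also kept 0. In the added fits with covariates, the striatal count was 3 at 6 against 0.1 mg/kg with the shared score (0 to 3 when libraries were left out) and 0 to 2 at 6 mg/kg against vehicle. With both covariates it was 1 (Rgs9) in the prefrontal cortex, for 6 mg/kg against vehicle and for the rank trend (0 to 1 when libraries were left out). The regional count ran from 0 to 7 around 6 when numbers were left out, or from 1 to 8 around 7 with Drd3 counted.

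Libraries of the same number deviated together only weakly between regions (r of -0.0906 to 0.237, mean 0.113, against -0.0233 with other numbers of the group; 12 of 21 over 0.1 and 11 best with their own number). This is a hint of shared numbers, but the labels do not state it and some pairs fall short, so pairing was not established. The replicate block gave 5 of 8 members in the regional comparison (6 with Drd3), losing Drd1 (adjusted p = 0.0557), and 0 in the interactions. Over all genes, the 440 calls at 6 against 0.1 mg/kg in the striatum became 0 without library 29, 9 without 23, 12 without 25, 42 without 24, 1098 with DESeq2, 668 with the compared groups alone and 3 with the GC covariate. The GC correlation did not overlap between the 6 and 0.1 mg/kg striatum libraries, so the last of these fits cannot tell it apart from dose. The 16 prefrontal calls at 6 against 0.1 mg/kg became 116 with DESeq2 and 0 with the compared groups alone. With 4 vehicle libraries, small changes could be missed, and Drd3 rested on 1 to 83 counts per striatum library.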
